A study of Mus musculus with 6 samples.

Results

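The annexins are a family of calcium-binding proteins, and 8 of their genes were followed here in the hippocampus of mice after ischemia/reperfusion (I/R): Anxa1, Anxa2, Anxa3, Anxa4, Anxa5, Anxa6, Anxa7 and Anxa11. They were taken by gene name from a table of 41386 genes that names 12 annexin genes, and the choice of these 8 was made with earlier results of these data known. All 8 passed the filter on low counts, which left 18569 genes for testing. Wild-type C57BL/6 mice (C57BL/6J males in the methods) aged 56 days had the middle cerebral artery blocked by a filament for 1.5 h and reopened for 24 h (I/R), while sham mice underwent the operation without the filament. The data are bulk RNA-seq of the hippocampus on the operated side, with 3 I/R and 3 sham libraries, each described in the methods as a pool of 3 hippocampi. The error given is therefore the spread between pools, and p-values measure that spread and not the spread between single animals.

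Library totals lay between 37493042 and 44788547 counts. Levels are given as CPM, the counts scaled to a common library size. A gene at the floor of 3 counts was at 0.0793 CPM in sham on average, and all 8 annexins were above that floor in all 6 libraries. The hippocampal markers fixed for the check (Prox1, Zbtb20, Wfs1, Neurod6 and Grik4) were present in every library, with summed levels of 607 to 635 CPM in sham and 183 to 381 CPM in I/R. I/R replicate 3 and sham replicate 1 stood apart in choroid plexus markers, with 32.6 and 36.4 CPM over 6 genes against 1590 to 4400 CPM in the other 4 libraries. Results were therefore also computed without both of these libraries.

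Annexins bind acidic phospholipids of membranes in the presence of calcium through a conserved core of repeats, and they differ in the N-terminal tail that precedes this core. The tail carries the sites for partner proteins such as the S100 proteins and for kinases. In injured tissue the family is known for sealing torn membranes, for binding phosphatidylserine on dying cells, for assembling plasminogen activators at the cell surface and for limiting the recruitment of leukocytes.

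RefSeq promoter windows (GRCm38.p6, 250 bases before to 50 bases after the start site) were at hand for 6 of the 8 annexins, all but Anxa3 and Anxa6. The 250 upstream bases are shown for Anxa1, Anxa2 and Anxa4, because these 3 genes rose and their windows differed in the set of motifs matched. Some motifs were shared, TATAAA by Anxa1 and Anxa2 and the GC box by Anxa2 and Anxa4. Capitals mark each match to a motif searched, on either strand, 5′ to 3′. The Anxa1 stretch is chr19:20390672-20390921 on the minus strand, the Anxa2 stretch is chr9:69453433-69453682 on the plus strand and the Anxa4 stretch is chr6:86793585-86793834 on the minus strand.
Anxa1: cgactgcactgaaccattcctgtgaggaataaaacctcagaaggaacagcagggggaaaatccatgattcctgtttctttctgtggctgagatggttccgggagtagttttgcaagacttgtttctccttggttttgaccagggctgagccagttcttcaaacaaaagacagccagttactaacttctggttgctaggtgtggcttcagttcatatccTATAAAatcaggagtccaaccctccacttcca
Anxa2: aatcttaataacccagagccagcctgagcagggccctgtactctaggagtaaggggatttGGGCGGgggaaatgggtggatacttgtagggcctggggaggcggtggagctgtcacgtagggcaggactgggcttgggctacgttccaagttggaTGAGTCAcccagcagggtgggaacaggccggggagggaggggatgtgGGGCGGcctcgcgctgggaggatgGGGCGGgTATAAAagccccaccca
Anxa4: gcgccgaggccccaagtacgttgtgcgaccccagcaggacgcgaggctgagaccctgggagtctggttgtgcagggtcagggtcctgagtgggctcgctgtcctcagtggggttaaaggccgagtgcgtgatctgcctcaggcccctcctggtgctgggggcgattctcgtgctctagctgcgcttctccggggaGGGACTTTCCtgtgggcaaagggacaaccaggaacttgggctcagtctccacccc

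The search covered AP-1, spelled TGANTCA, the cyclic AMP response element, spelled TGACGTCA, and the NF-kB motif. It also covered STAT, spelled TTCNNNGAA, with N for any base. The GC box was searched as GGGCGG. The TATA box was searched as TATAAA. The last motif was the CCAAT box, and no letters are shared between matches in the stretches shown. The Anxa2 window held an AP-1 match 95 bases before the start, TATAAA 17 bases before it and 3 GC boxes. Of 32841 RefSeq windows of the same length, 7.81% held an AP-1 match, 13.6% a TATA match and 35.7% a GC box. The Anxa1 window held a single match, TATAAA at 32 bases before the start, in a sequence of 47.3% GC against 63.7% for Anxa2 and a median of 52.7% over all windows. Anxa4 had an NF-kB match at 55 bases before its first start site, a motif found in 1.63% of windows, and a GC box past the start that lies outside the stretch shown. The Anxa7 and Anxa11 windows held GC boxes alone, and the Anxa5 window held no match to the letters searched. A match is a description of letters in the window, and binding was not measured.

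The comparison of I/R with sham asked which annexin transcripts differed after reperfusion. A differentially expressed gene (DEG) had a Benjamini-Hochberg adjusted p under 0.05 in edgeR's quasi-likelihood test together with a change of more than 1.2 times, up or down. Of all genes tested, 41.8% were DEGs, with 21.8% higher and 19.9% lower in I/R. Among the 8 annexins, 7 were DEGs: Anxa1, Anxa2, Anxa3, Anxa4, Anxa5 and Anxa7 were higher, Anxa6 was lower and Anxa11 was not called. The share of annexins called higher was thus 75.0%. Their median log2 fold change was 1.35, against 0.03 over all genes tested. A log2 fold change over 1 was reached by 5 of the annexins and by 10.2% of all genes tested, and a log2 fold change over 2 by 3 annexins and 4.38% of all genes. The CPM of the groups did not overlap for 7 annexins, as for 57.4% of all genes tested. For each of these 7 the exact two-sided permutation test of CPM gave p = 0.1, the smallest value that 3 libraries against 3 allow. In bulk tissue, a change in the number of cells of a type and a change in the RNA per cell cannot be told apart.

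**Figure D1:**
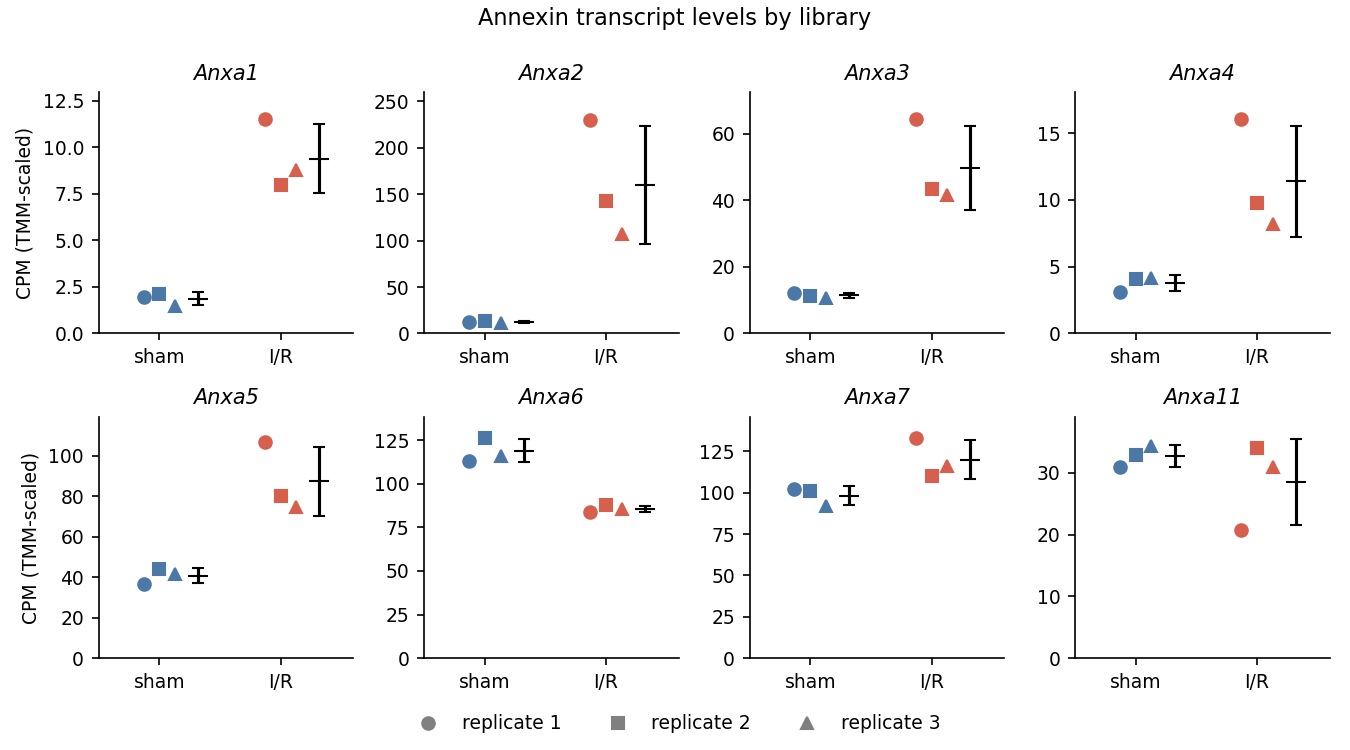
Levels of the 8 annexins in each library, as CPM on the TMM-scaled library size, with each panel starting at 0. Symbols are libraries (blue sham, red I/R) and black bars are the mean ± SD of 3 libraries. The groups overlap for Anxa11 alone, Anxa6 is lower in I/R, and I/R replicate 1 is the highest library for Anxa1, Anxa2, Anxa3, Anxa4, Anxa5 and Anxa7.

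Anxa2 encodes annexin A2, which pairs with S100a10 and holds tissue plasminogen activator and plasminogen at the cell surface. In sham its counts were 480, 553 and 387 by replicate. After I/R they were 10472, 5715 and 4288. On the CPM scale the sham libraries stood at 12.3, 13.6 and 11.2, and the I/R libraries at 230.0, 143 and 107. The lowest I/R library was several times above the highest sham library, and the I/R libraries differed among themselves more than the sham libraries did. Mean levels were 12.4 ± 1.18 CPM for sham and 160.0 ± 63.2 CPM for I/R (mean ± SD of 3 libraries, as for all means that follow). This is a fold of 12.9 and a log2 fold change of 3.69 (SE 0.28, edgeR, Benjamini-Hochberg adjusted p = 0.000269). Of all genes tested, 1.37% had a larger log2 fold change. The gene lies on chromosome 9, plus strand, from 66788383 to 66826852 on the BALB/cJ assembly that the table uses (MGP_BALBcJ_G0034965). It overlaps the opposite-strand gene Gm16144, which had 14, 13 and 8 counts after I/R against 0, 0 and 1 in sham, far below the counts of Anxa2.

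Anxa1 encodes annexin A1, a glucocorticoid-induced protein whose N-terminal peptides act on formyl peptide receptors of leukocytes. Its counts were 522, 318 and 350 after I/R against 77, 87 and 51 in sham, in replicate order. All I/R libraries were above all sham libraries, at a far lower level than Anxa2. In CPM the means were 9.39 ± 1.84 after I/R against 1.87 ± 0.342 in sham, and Anxa1 rose 5.02-fold, by 2.33 on the log2 scale (SE 0.23, edgeR, adjusted p = 0.000484). The gene (MGP_BALBcJ_G0024948) is on chromosome 19, minus strand, from 17367696 to 17385618.

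Anxa3, Anxa4 and Anxa5 rose as well, by smaller amounts. Annexin A3 is abundant in neutrophils, where it was described on granules. Anxa3 counts were 2930, 1726 and 1665 after I/R against 478, 456 and 365 in sham. Its mean level of 49.7 ± 12.7 CPM in I/R against 11.4 ± 0.826 CPM in sham gave 2.13 in log2 fold change (SE 0.18 by edgeR, adjusted p = 0.000344). The groups were clearly apart, with 41.6 CPM in the lowest I/R library and 12.2 CPM in the highest sham library. Anxa3 (MGP_BALBcJ_G0029742) is on chromosome 5, plus strand, from 95445601 to 95499471.

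Annexin A4 is best known from epithelial cells, where it binds membranes near the cell surface. Anxa4 was the least abundant of the 3, with 734, 392 and 329 counts after I/R against 120, 166 and 144 in sham. Levels averaged 11.4 ± 4.18 CPM after I/R against 3.78 ± 0.615 CPM in sham, so Anxa4 rose by 1.59 on the log2 scale (SE 0.28, edgeR, adjusted p = 0.00333). The spread within I/R was wide, from 8.23 to 16.1 CPM, but its lower end was above the 4.19 CPM of the highest sham library. Anxa4 (MGP_BALBcJ_G0030962) is on chromosome 6, minus strand, from 84654852 to 84713963, and overlaps the end of the opposite-strand gene Gm44036, which had 5 to 23 counts in a library.

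Annexin A5 covers phosphatidylserine on the outer face of membranes and is used as a stain for dying cells. Anxa5 was already well expressed in sham, with 1429, 1795 and 1433 counts, and reached 4868, 3211 and 2995 counts in I/R. In CPM this was 87.4 ± 17.2 against 40.8 ± 3.85, that is 1.10 in log2 fold change (SE 0.15 by edgeR, adjusted p = 0.00132). The lowest I/R library was at 74.9 CPM and the highest sham library at 44.2 CPM. Anxa5 (MGP_BALBcJ_G0027130) is on chromosome 3, minus strand, from 33352549 to 33381057.

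Both Anxa4 and Anxa5 were lowest within their group in the libraries with little choroid plexus RNA, I/R replicate 3 and sham replicate 1. Without these 2 libraries, 6 annexins were DEGs, 5 of them higher and 1 lower, with the call of Anxa7 lost. Of the 18816 genes tested in that fit, 2796 were higher and 2459 lower. Anxa4 and Anxa5 were at 1.64 and 1.11 in log2 fold change there. The part of choroid plexus tissue in the level of any annexin was not tested.

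Anxa6 was the annexin that fell. Annexin A6 carries the core of the family in tandem and is known from cholesterol handling and endocytosis. Its counts were 3817, 3498 and 3421 after I/R against 4418, 5122 and 4005 in sham. In CPM the I/R libraries lay between 83.9 and 87.5 and the sham libraries between 113 and 126, so the groups did not overlap and I/R was the tighter group. The means were 85.6 ± 1.82 and 119 ± 6.69 CPM, and Anxa6 fell by 0.47 on the log2 scale (SE 0.08, edgeR, adjusted p = 0.00295). Scaling by library size alone moved the median log2 fold change of all genes from 0.03 to 0.28 and turned the split of DEGs from 21.8% higher and 19.9% lower to 34.1% higher and 10.9% lower, 45.0% in all, with 6 annexins called. On that scale Anxa6 was at −0.21 (edgeR, adjusted p = 0.0509) and was no longer called. Relative to the median of all genes it was at −0.50 with the composition factors and at −0.49 without them. Scaling moves a gene and the median of all genes by nearly the same amount. The likeness of these 2 values therefore follows from the method and does not restore the call. Anxa6 (MGP_BALBcJ_G0018263) is on chromosome 11, minus strand, from 52788420 to 52843219.

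Anxa7 and Anxa11 have the long N-terminal tails of the family. Annexin A7, or synexin, was named for fusing secretory granules in the presence of calcium and binds sorcin. Anxa7 had 6055, 4395 and 4657 counts after I/R against 3981, 4098 and 3159 in sham. Its CPM values of 133, 110 and 116 in I/R were above the 102, 101 and 91.8 in sham by a small margin. The mean rose from 98.2 ± 5.56 to 120 ± 11.9 CPM, that is 0.29 in log2 fold change (SE 0.10 by edgeR, adjusted p = 0.0459). That call sat at the limit for both fold and p. It was lost in 10 of 15 alternatives, including the removal of each of the 6 libraries in turn, with adjusted p from 0.00612 to 0.19 over all 15 alternatives. With I/R replicate 1 left out, Anxa7 was at 0.20 on the log2 scale, under the limit of fold. Anxa7 (MGP_BALBcJ_G0020988) is on chromosome 14, minus strand, from 13012806 to 13037182.

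Annexin A11 binds the calcium sensor ALG-2, which Pdcd6 encodes, and tethers RNA granules to lysosomes on their way along axons. Anxa11 counts were 943, 1358 and 1236 after I/R against 1206, 1334 and 1182 in sham. In CPM, I/R replicate 1 was low at 20.7, whereas I/R replicates 2 and 3 at 34.0 and 30.9 lay within or near the sham values of 30.9 to 34.4. The groups overlapped, and the log2 fold change was −0.20 (SE 0.17, edgeR, adjusted p = 0.399) with the composition factors, −0.01 without I/R replicate 1 and 0.05 with scaling by library size alone. Anxa11 counts carry a further uncertainty, since 16.2% of the 50-base stretches of its GENCODE M21 transcripts also occur in another gene, among them Anxa11os on the opposite strand. For the other 7 annexins that share was at most 1.79%. Anxa11 (MGP_BALBcJ_G0021020) is on chromosome 14, plus strand, from 18415618 to 18462418.

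The annexins changed rank within the family. Deposited FPKM, which divide by gene length and library size, allow levels of different genes to be set side by side. In sham the order was Anxa6 at 46.1 ± 2.26, Anxa5 at 39.6 ± 3.5, Anxa7 at 31.6 ± 1.75, Anxa11 at 12.8 ± 0.664, Anxa3 at 12.2 ± 0.925, Anxa2 at 9.12 to 10.9, Anxa1 at 2.62 ± 0.469 and Anxa4 at 2.41 ± 0.383 FPKM. Neighbours in this order had separate ranges, except Anxa11 with Anxa3 and Anxa1 with Anxa4. In I/R, Anxa2 moved to the top at 156 ± 69.3 FPKM. It was followed by Anxa5 at 102 ± 25.1, Anxa3 at 64.4 ± 19.7, Anxa7 at 46.1 ± 6.73, Anxa6 at 39.7 ± 1.22, Anxa1 at 15.8 ± 3.87, Anxa11 at 13.2 ± 2.72 and Anxa4 at 8.76 ± 3.66 FPKM. The ranges of the upper 4 overlapped from neighbour to neighbour, yet within each of the 3 I/R libraries Anxa2 was above Anxa5, Anxa5 above Anxa3 and Anxa3 above Anxa7. On this scale Anxa1 and Anxa4 did not differ beyond their spread from Anxa11. The length behind the FPKM was shorter than the length listed in the table for all 8 annexins, 652 against 1674 bases for Anxa1 and 1132 against 2280 bases for Anxa2. With the listed length, Anxa2 was still first in I/R and sixth in sham, while in sham Anxa7 passed Anxa5 and Anxa4 passed Anxa1, and in I/R Anxa3 moved from the third to the fifth place and Anxa11 passed Anxa1, with separate ranges.

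As a share of the summed FPKM of the 8 annexins, Anxa2 held 6.53%, 6.63% and 5.91% in the sham libraries. After I/R it held 39.7%, 34.0% and 28.5%. The difference was 27.7 percentage points, with no overlap (exact permutation p = 0.1, the smallest possible, and 0.133 after Benjamini-Hochberg adjustment over 8 shares). Anxa6 moved the other way, from 29.3% ± 0.341 to 9.3% ± 2.08. The share of Anxa7 was 20.1% in sham and 10.6% in I/R, although its CPM was higher in I/R. Anxa3 went from 7.79% to 14.4% and Anxa1 from 1.66% to 3.58%. The share of Anxa11 went from 8.12% to 3.19%, although its FPKM was 12.8 ± 0.664 in sham and 13.2 ± 2.72 in I/R. A share falls when other annexins rise more, even where the gene keeps its own level. The shares of these 5 annexins did not overlap between the groups either, each with the same smallest p. Anxa4 was at 1.53% in sham and 1.92% in I/R with overlapping groups by FPKM. By counts per base of the listed length it was at 1.1% and 1.73%, and the groups did not overlap. The share of Anxa5 was 2.18 percentage points lower in I/R by FPKM and 2.51 points higher by counts per base of the listed length, so no direction is given for it. The 8 annexins together had 590, 396 and 353 FPKM in I/R and 153, 164 and 154 FPKM in sham.

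**Figure D2:**
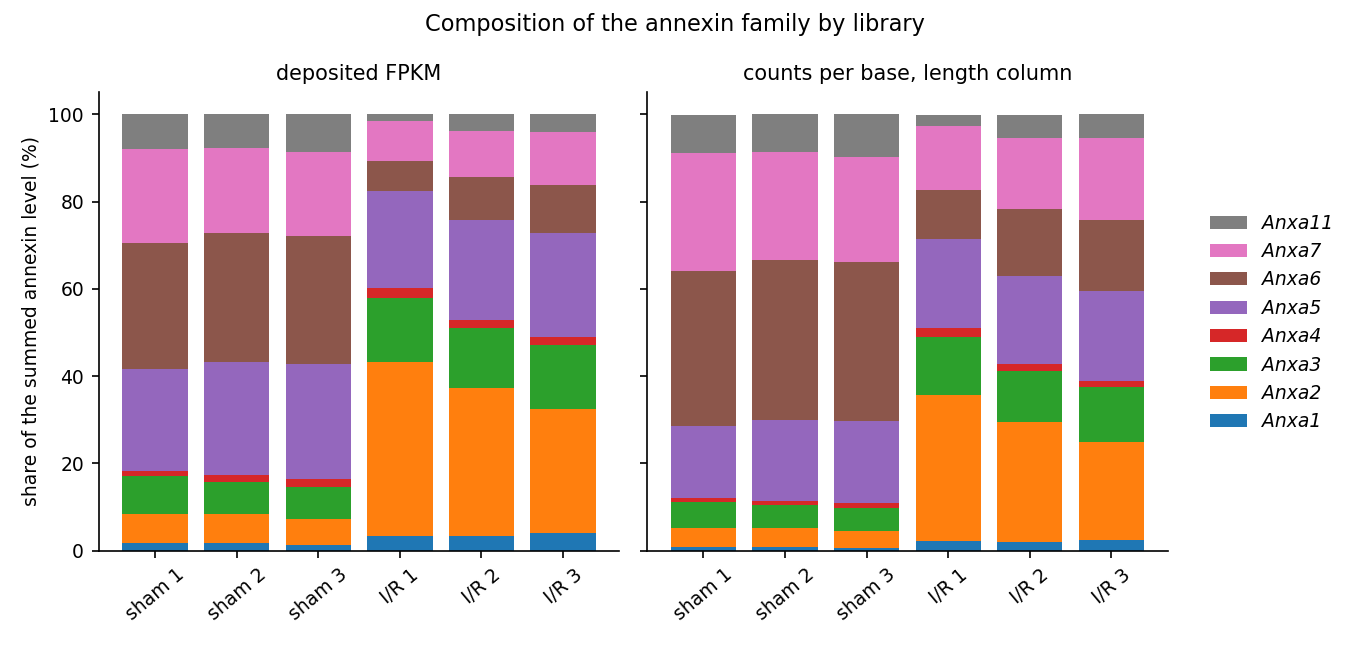
Share of each annexin in the summed level of the 8 annexins (percent, stacked to 100 from 0) in each library, by deposited FPKM on the left and by counts per base of the listed gene length on the right. Anxa2 (orange) takes 28.5% to 39.7% of the FPKM in I/R against 5.91% to 6.63% in sham, Anxa6 (brown) goes from the largest share to a minor one, and the direction for Anxa5 (purple) depends on the length used.

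In CPM, the summed level of the 8 annexins was 552 ± 101 after I/R against 320.0 ± 13.2 in sham, a fold of 1.73. Without Anxa2 the sum was 392 ± 38.8 against 307 ± 12.2 CPM, a fold of 1.28. Both sums were higher in each I/R library than in each sham library (exact permutation p = 0.1). Anxa2 also rose against every other annexin in ratios taken within a library, which do not depend on library scaling. The log2 ratio of Anxa2 counts to Anxa6 counts was 1.46, 0.71 and 0.33 after I/R against −3.20, −3.21 and −3.37 in sham, a difference of 4.09. Against Anxa11 the difference was 3.85, against Anxa7 3.34, against Anxa5 2.54, against Anxa4 2.08, against Anxa3 1.52 and against Anxa1 1.29. None of these 7 ratios overlapped between the groups, and each had an exact permutation p = 0.1.

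The I/R libraries differed in how far the annexins rose. I/R replicate 1 over the mean of replicates 2 and 3 was 1.84 for Anxa2, 1.79 for Anxa4, 1.52 for Anxa3, 1.38 for Anxa5, 1.37 for Anxa1 and 1.18 for Anxa7 in CPM. For Anxa6 this ratio was 0.969 and for Anxa11 0.639. The coefficient of variation in I/R ranged from 2.13% for Anxa6 to 39.5% for Anxa2, against 5.31% to 18.3% in sham. With I/R replicate 1 left out, log2 fold changes were 3.33 for Anxa2, 2.16 for Anxa1, 1.90 for Anxa3, 1.25 for Anxa4 and 0.92 for Anxa5, all still DEGs. No single library moved the fold of any annexin by more than 1.28 times.

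I/R replicate 1 was also at the end of the range for several cell type marker lists. The markers called in each list stand beside 21.8% higher and 19.9% lower over all genes tested. Neuronal markers (4 of 5 in the table, 4 of 4 lower) summed to 1240 CPM in I/R replicate 1, 2270 and 2500 CPM in I/R replicates 2 and 3, and 4500 to 4720 CPM in sham. Markers of infiltrating leukocytes (7 of 8 in the table, 4 of 5 tested higher) summed to 57.0 CPM in I/R replicate 1. Their sum was 17.0 and 25.6 CPM in the other I/R libraries and 4.33 to 5.93 CPM in sham. Plac8 was not tested, with 17, 0 and 12 counts after I/R and 0 in each sham library. Endothelial markers (6 of 7 higher, 1 lower) summed to 548, 429 and 362 CPM after I/R against 264 to 265 CPM in sham. Fibroblast, meningeal and mural markers (4 of 6 higher) summed to 275, 176 and 162 CPM after I/R against 119 to 137 CPM in sham. Both lists had the I/R libraries in the order that Anxa2, Anxa3, Anxa4 and Anxa5 also had. Microglial markers (3 of 6 tested higher, 2 lower) summed to 232 to 323 CPM after I/R against 219 to 249 CPM in sham, so these groups overlapped, and Itgam was listed at 0 in all 6 libraries. The lower microglial genes were P2ry12 and Tmem119, both homeostatic markers, and Aif1 and Cx3cr1 were among the higher ones. Astrocyte markers (2 of 7 higher, 4 lower) summed to 4900 to 5220 CPM after I/R against 5340 to 5640 CPM in sham. That sum hides opposite changes of abundant genes. Gfap was higher, at 2000 CPM on average in I/R against 403 CPM in sham, and Slc1a2 lower, at 1590 against 3080 CPM. Oligodendrocyte markers (2 of 5 lower) summed to 4520 to 5030 CPM after I/R against 5690 to 7060 CPM in sham. Choroid plexus markers (0 of 6 called) followed no group. The part of any of these cell types in the annexin changes was not tested.

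**Figure D3:**
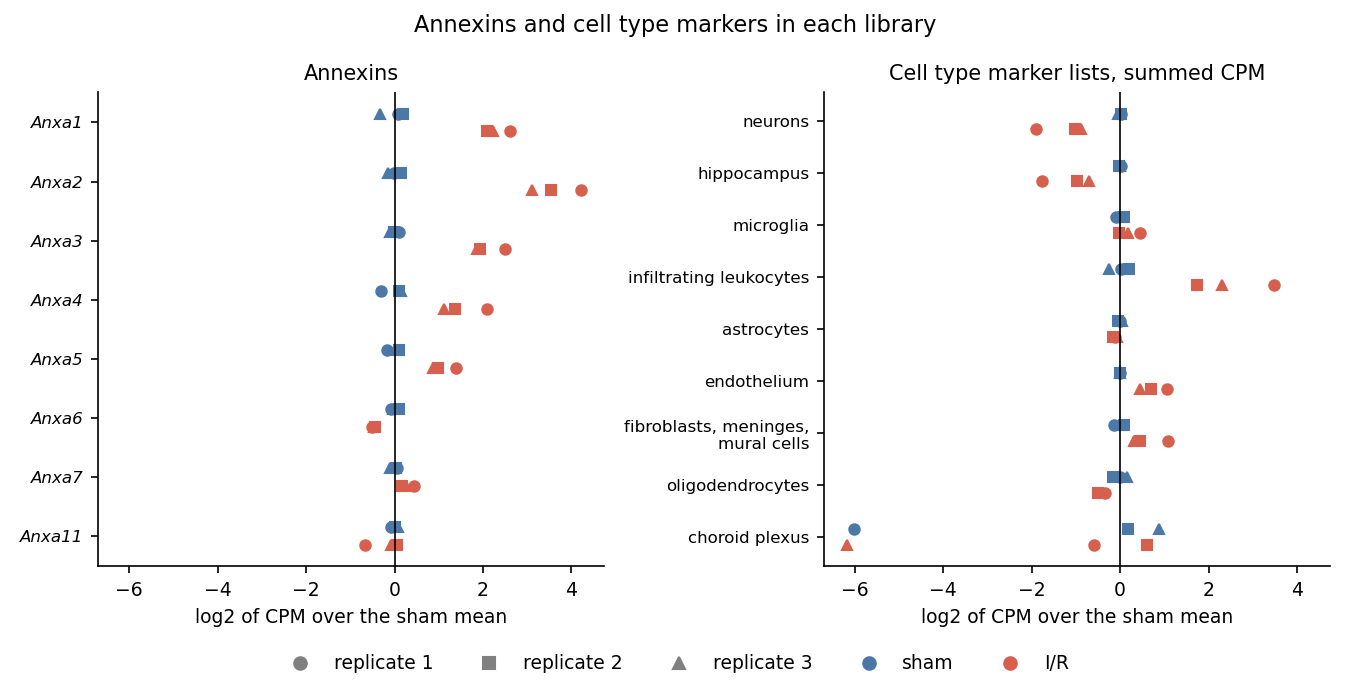
Each library relative to the sham mean, as log2 of CPM over the sham mean, for the 8 annexins (left) and for summed marker lists (right). Symbols are replicates, blue is sham and red is I/R. I/R replicate 1 (red circles) lies farthest from sham for Anxa1 to Anxa5 and for neuronal, leukocyte and endothelial markers, and the choroid plexus list is low in I/R replicate 3 and sham replicate 1.

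Among annexin genes beyond these 8, Anxa8 was low and higher in I/R, with 304, 112 and 150 counts against 41, 40 and 58 in sham (log2 fold change 1.84, SE 0.38, edgeR, adjusted p = 0.00699). Anxa9 had 68, 24 and 19 counts after I/R against 32, 27 and 16 in sham and was not called (edgeR, adjusted p = 0.563). Anxa10 and Anxa13 had 0 to 5 counts in a library and were not tested.

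Partners of the annexins were taken from 7 lists of 30 genes. Of these, 29 were in the table and 25 were tested, with 15 higher, 2 lower and 8 not called. Their share called higher was 60.0%, with a median log2 fold change of 0.91, against 21.8% and 0.03 over all genes tested. The lists were chosen with results of these data known, so their direction is not independent evidence.

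All 3 S100 partners tested were higher. S100a10, the partner of annexin A2, had 4003, 3376 and 2986 counts after I/R against 643, 726 and 455 in sham (log2 fold change 2.38, SE 0.13, edgeR, adjusted p = 0.000164). S100a11, which binds annexin A1, had 2794, 1466 and 1178 counts after I/R against 122, 129 and 129 in sham, that is 3.67 in log2 fold change. S100a6, a partner of annexin A11 among others, had 6183, 2844 and 2502 counts after I/R against 324, 356 and 297 in sham, that is 3.39 in log2 fold change. S100a4 had 9, 6 and 7 counts after I/R against 0 in each sham library, at least 2.2-fold higher against a floor of 3 counts per library. Penta-EF-hand partners of the long-tailed annexins gave no call, with a log2 fold change of 0.23 for Pdcd6 and −0.04 for Sri, which encodes sorcin.

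The plasminogen system that annexin A2 serves was higher for 3 of 3 genes tested. Plaur, the urokinase receptor, had 1978, 1307 and 840 counts after I/R against 59, 13 and 27 in sham (log2 fold change 5.21, SE 0.49, edgeR, adjusted p = 0.000432). Plau, urokinase itself, rose by 2.85 and Plat, tissue plasminogen activator, by 0.91 on the log2 scale. Plg, plasminogen, is made mainly in liver and had at most 2 counts in any library. The annexin A1 receptors were too low to be tested, with 68, 3 and 25 counts of Fpr1 in I/R against 6, 4 and 1 in sham, and 23, 8 and 2 counts of Fpr2 against 2, 4 and 0.

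Of 8 membrane repair genes, 6 were higher and 1 was lower. Trim72, also known as MG53, rose by 3.09, the ferlins Dysf and Myof by 2.59 and 1.70, and Ahnak, a large scaffold bound by S100a10 and annexin A2, by 1.63 on the log2 scale. Pdcd6ip, or ALIX, and the calpain Capn2 rose by 0.57 and 0.48. Capn1 was the gene that fell, by 0.69, and the ESCRT subunit Chmp4b was at −0.04 without a call. Among genes of phosphatidylserine exposure, the lipid the annexins bind, the scramblase Ano6 rose by 1.15 and Plscr1 by 2.21, while Xkr8 and the flippase Atp11a were not called. Among kinases that act on annexins, Src fell by 0.75, and Fyn and Trpm7 were not called.

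**Figure D4:**
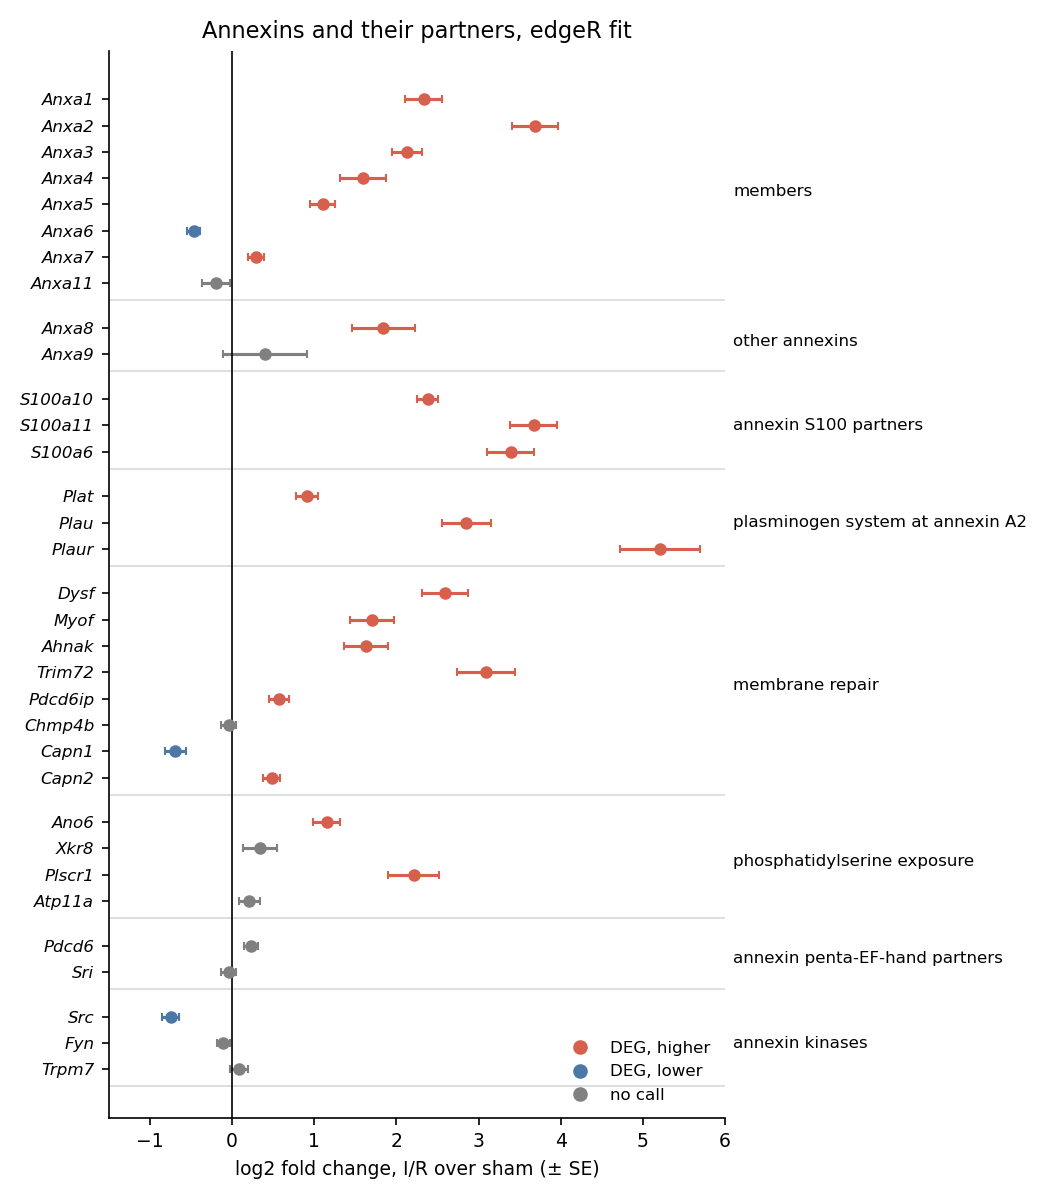
Log2 fold change of I/R over sham (points) with SE (bars) from edgeR for the 8 annexins, 2 further annexins and the partner genes tested that are named here, grouped by list. Red is a DEG that is higher, blue a DEG that is lower and gray no call. Points for Anxa2, S100a11 and S100a6 lie between 3.39 and 3.69, and Plaur lies at 5.21. The lower DEGs Anxa6, Capn1 and Src lie below 0. Anxa11, without a call, lies at −0.2, and scaling by library size alone, which is not drawn, gave 0.05.

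Profiles over the 6 libraries were compared by Euclidean distance, in log2 units, of log2(CPM + 1) less the sham mean. Among the 28 pairs of annexins, the closest were Anxa1 with Anxa3 at 0.39, Anxa4 with Anxa5 at 0.55 and Anxa6 with Anxa11 at 0.65. Anxa2 stood away from the rest of its family, its nearest relative being Anxa3 at 2.65. Outside the family, over 16182 named genes, the 5 profiles nearest to Anxa2 were Tm4sf1 at 0.22, Vim at 0.29, Fos at 0.35, Il4ra at 0.38 and Gm9817 at 0.41. Tm4sf1 encodes a tetraspanin-like protein of endothelium, Vim the filament protein vimentin, Fos a subunit of AP-1 and Il4ra a chain of the interleukin-4 receptor. Tm4sf1 had 296, 166 and 147 CPM after I/R against 14.7, 16.4 and 14.2 CPM in sham. It was picked as the nearest profile, so its likeness to Anxa2 in fold and in the high I/R replicate 1 follows from the choice. Nearest to Anxa1 were Sesn2 at 0.19, Igtp at 0.23, Ggta1 at 0.26, Myd88 at 0.28 and Cd274 at 0.28. The pseudocount of 1 CPM compresses changes of genes as low as Anxa1 or Anxa4. The edgeR log2 fold change was 1.86 for Sesn2 and 2.33 for Anxa1, and it was 1.59 for Anxa4 and 1.1 for Anxa5. Sesn2 is a stress-induced sestrin, Igtp an interferon-inducible GTPase, Myd88 the adaptor of Toll-like receptors and Cd274 the checkpoint ligand PD-L1.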

How the data were processed

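Groups and replicate numbers came from the sample titles. The authors aligned total-RNA reads to an Ensembl genome with TopHat2 and counted reads per gene with HTSeq, and they deposited raw counts with FPKM per library. The submitters' processing notes also name Bowtie 0.12.2 and mm8, whereas 40303 of the 41386 gene identifiers are Ensembl BALB/cJ, so reads of C57BL/6 mice were counted on another strain's annotation. Strand use and the handling of multi-mapping reads are not given in the sources used here. The table had 41390 lines, of which 4 were split pieces and were rejoined. The deposited FPKM rest on a gene length within 1% of the listed length for 34.8% of 18567 genes checked. The authors' own group means, fold changes and p-values were not used.

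The test across genes was that of edgeR 4.0.16, run in R 4.3.3 (filterByExpr, TMM composition factors, robust quasi-likelihood F-test, no covariates), with Benjamini-Hochberg adjustment over all 18569 genes tested. SE was the log2 fold change divided by the square root of F. CPM used the TMM-scaled library size. Floors of 3 counts cover counting error only. Alternatives used DESeq2 1.42.0, limma 3.58.1 on log2(FPKM + 1) and log2(FPKM + 0.1), other scalings and filters, a replicate block and the removal of libraries. The fit was tested on simulated data. The members and lists were chosen with earlier results of these data known. All 8 members and their listed partners were eligible to be named, and for likeness the 5 nearest genes to Anxa2 and to Anxa1. Some genes of the lists are not reported here by name. Transcript stretches were taken from GENCODE M21 and promoters from RefSeq.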

Additional observations from a re-analysis of the deposited data

How the results depend on the processing

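Over 15 alternatives Anxa1, Anxa2, Anxa3, Anxa4 and Anxa5 were DEGs each time, with log2 fold changes of 2.16 to 2.59, 3.33 to 3.96, 1.90 to 2.40, 1.25 to 1.86 and 0.92 to 1.36. Anxa6 ranged from −0.51 to −0.21 and missed the threshold with library size alone and with limma on log2(FPKM + 1) or log2(FPKM + 0.1) (adjusted p = 0.0509 to 0.0577). Anxa11, not called in any setting, was at 0.05, 0.03 and 0.03 in these same 3 settings, opposite in sign to the edgeR value of −0.20 with TMM factors. The number of annexins called was 5 to 7 in all settings, and 5 at a fold over 2, where all genes gave 2760 DEGs (1893 higher, 867 lower) in place of 7756. In the other settings all genes gave 5255 to 8386 DEGs, the lowest without I/R replicate 3 and sham replicate 1 together, an alternative chosen after seeing the data. The share of Anxa5 was 3.05 points higher in I/R by raw counts and 2.51 points higher by counts per listed base, the latter also chosen after seeing the data, against 2.18 points lower by FPKM. The rise of the Anxa2 share was 23.6 to 27.4 points on other scales and 24.9 to 30.5 points with 1 library left out. With the replicate number as a block, 6332 genes and 6 annexins were DEGs, and Anxa7 was at 0.28 (adjusted p = 0.0827). Deviations of same-numbered libraries correlated at −0.10, 0.06 and −0.18, so the numbers were not taken as pairs. No I/R library correlated best with the sham library of its own number. With 3 pools a group, small changes such as that of Anxa7 are at the limit of what can be called.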
